A study of Mus musculus with 6 samples.

Results

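The ATRX peak lists of wild-type and DNA methyltransferase-deficient mouse embryonic stem cells were compared position by position. All peaks of both lists were taken, 1440 from wild-type J1 cells (WT) and 1650 from cells in which the DNA methyltransferases were knocked out (triple knockout, TKO). Together these are 3090 of the 7165 peaks in the 6 lists of the series. An ATRX peak was counted as shared when it had at least 1 bp in common with a peak of the other ATRX list. Positions refer to the mouse build mm9.

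ChIP-seq, in which an antibody pulls down fixed chromatin and the recovered DNA is sequenced, was done once in each cell line with antibodies to ATRX and to its partner DAXX and with rabbit IgG as background. WT and TKO cells were cultured alike, in embryonic stem cell medium with the MEK inhibitor PD0325901 (1 µM) and the GSK3 inhibitor CHIR99021 (3 µM), a combination known as 2i. The labels name J1 as the wild-type line and describe the other cells only as a knockout of the DNMTs, and say neither whether these were 1 clone nor how they relate to J1. Methylation was not measured in these files, and the knockout could not be checked in them.

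ATRX is a chromatin remodeller of the SWI/SNF family. With the histone chaperone DAXX it places the replacement histone H3.3 in repeat-rich and heterochromatic DNA, such as telomeres, the satellite repeats beside centromeres and certain retrotransposons. Part of ATRX reads trimethylated lysine on histone H3, a mark of silent chromatin. DNA methyltransferases write and maintain the methylation of cytosines, which also silences many repeats. The series addresses whether the ATRX and DAXX pair acts at repetitive DNA when this methylation is missing.

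Each ATRX list comes from 1 library. Differences between them therefore have no replicate check and were not tested, and the intervals given below are exact 95% binomial intervals that cover counting error over peaks only. Sequencing depth is unknown, since the files give no read totals, and a peak missing from a list is not evidence that ATRX was absent there. The list labelled WT ATRX was also not separate from the rest of the series. Its intervals had the same start and end as a TKO DAXX interval in 750 of 1440 cases (52.1%, 49.5 to 54.7), so overlap counts with this list are given with all of its peaks, and then for the 690 other WT peaks alone. The lists do not show which of these 2 labels the common intervals belong to.

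Few sites were listed for ATRX in both cell lines. Of the WT peaks, 55 of 1440 were shared (3.82%, 2.89 to 4.94), and of the TKO peaks, 54 of 1650 (3.27%, 2.47 to 4.25). They formed 56 overlapping pairs in 53 separate regions. Among the 750 intervals that were identical in the TKO DAXX list, 46 were shared with TKO ATRX (6.13%, 4.52 to 8.10). Among the 690 other WT peaks, 9 were shared (1.30%, 0.598 to 2.46). Without the identical intervals the shared portion of the TKO ATRX list was 9 of 1650 peaks (0.545%, 0.250 to 1.03). Most of the sites common to the ATRX lists thus rested on intervals that also stood, to the base, in the TKO DAXX list.

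Where the lists met, they met closely. The 2 peaks of a pair had between 168 and 1918 bp in common, with a median of 439.5 bp. The WT peak lay wholly inside the TKO peak in 29 of 56 pairs, and the TKO peak wholly inside the WT peak in 8. The TKO peak was the wider in 40 pairs and the WT peak in 16. The midpoints were a median of 45.25 bp apart, and 44 of the 56 pairs had midpoints within 100 bp of each other. In the 9 pairs without an identical WT interval the overlap was 182 to 470 bp, with a median of 347 bp, and 6 had midpoints that close. Near misses were few: 9 further WT peaks, 3 of them identical intervals, ended within 1 kb of a TKO ATRX peak. The closest of these was at chr12:19676470-19676782, which lay 47 bp from a TKO peak at chr12:19676829-19677168.

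The best-ranked common site was a wide peak on chromosome 18, 2040 bp in WT and 1934 bp in TKO cells. It was listed at chr18:24829925-24831964 in WT cells, with a score of 263.8 and rank 4, and at chr18:24830047-24831980 in TKO cells, with a score of 1152.59 and rank 1. The score is the value the authors' lists give each peak, without a header, and a higher score is read here as a stronger call. Because such a score can vary with sequencing depth and with the control used, it is taken only to rank peaks within a list. It does not measure a change between lists. The WT interval of this site stood to the base in the TKO DAXX list, and no WT DAXX peak was listed there.

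A site on chromosome 1 came next. It spanned chr1:184430927-184431383 in WT (score 200.72, rank 8), all of it inside the TKO interval chr1:184430854-184431549 (678.73, rank 3). Unlike the chromosome 18 site it was also in the WT DAXX list, so all 4 antibody lists held it. The WT ATRX and TKO DAXX lists gave the same interval here, however, and do not count as 2 separate calls. The next 2 sites were chr3:154135877-154137115, listed with 328.6 in WT and 386.53 in TKO cells, and chr7:87938261-87939949, listed with 381.03 and 376.69.

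The start of the assembled sequence of chromosome 9 held the highest WT peak. Mouse chromosomes carry their centromere at the end where numbering begins, so this is a centromere-proximal site. The WT interval chr9:2999985-3001853 scored 416.54 and the TKO interval chr9:2999987-3001850 scored 247.52, and they had 1864 bp in common, 99.7% of the WT and 100% of the TKO interval. This highest-ranked WT peak was only at rank 25 in the TKO list. A second pair in this stretch, chr9:3023282-3025215 in WT (186.7) and chr9:3023298-3026056 in TKO (267.89), ranked 12 and 20. The same TKO peak also covered a separate WT peak at chr9:3025356-3026052 (139.34), so 1 broad TKO interval stood against 2 WT intervals.

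Chromosome 9 carried the reverse arrangement near its other end. The single WT peak chr9:123842856-123844767 (146.64, rank 25) met 2 adjoining TKO peaks, chr9:123842850-123843827 (482.03, rank 7) and chr9:123843845-123844775 (254.09, rank 24). Both DAXX lists also had a peak there, and the TKO DAXX list held the WT ATRX interval itself. A further common site on this chromosome was chr9:23352115-23353161, scoring 174.76 in WT and 265.52 in TKO cells.

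The rest of the 15 best-ranked pairs were spread over chromosomes 2, 3, 18 and 19. The chromosome 19 site, chr19:3326970-3327948, scored 182.81 in WT and 355.69 in TKO cells, and was again close to the centromeric end. A second chromosome 18 site at chr18:75759310-75759902 scored 174.58 and 448.95 and was also in the WT DAXX list. The chromosome 3 site chr3:28012781-28013313 scored 139.37 and 397.35. Chromosome 2 had a neighbouring pair of sites. They were chr2:98502369-98503165 (192.11 in WT, 186.63 in TKO) and chr2:98506375-98507509 (170.25 and 196.29). Each of these 15 best-ranked pairs used a WT interval that TKO DAXX also listed to the base. A WT DAXX peak was overlapped by 4 of them, both pairs of the WT peak chr9:123842856-123844767 among these, and by 10 of all 56 pairs. None of the 56 pairs overlapped an IgG peak of either line. Such overlap was rare in the full lists too, so this does not set the pairs apart. Of all 1440 WT peaks 0.139% met WT IgG and 0.278% met TKO IgG, and of all 1650 TKO peaks 0.182% met each.

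**Figure D1:**
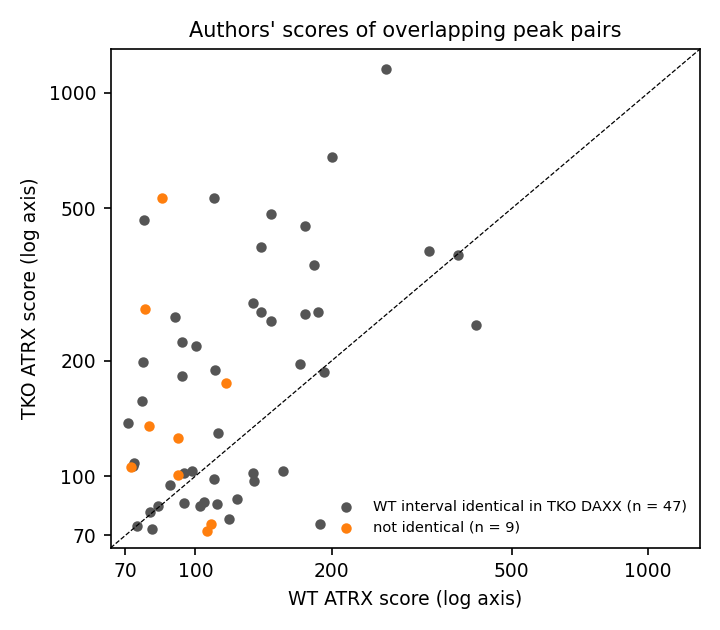
Authors' scores of the 56 overlapping peak pairs, WT ATRX on the horizontal and TKO ATRX on the vertical axis, both logarithmic, with a dashed line of equal score. Grey points are pairs whose WT interval is identical in the TKO DAXX list (47) and orange points are the other 9. The TKO value is the larger in 38 pairs and the WT value in 18, although scores of the 2 lists are not on 1 scale.

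Scores of the paired peaks followed each other loosely. Over the 56 pairs Spearman's rho was 0.35 and Pearson's r of the log10 scores was 0.47, as descriptions of pairs that share 2 libraries. The 47 pairs with an identical WT interval gave 0.45 and 0.52, and the other 9 gave -0.33 and -0.35, so the positive relation was not seen in those 9. In 31 pairs both peaks were in the upper 25% of their list. In 12 pairs only the TKO peak was, in 9 only the WT peak was, and in 4 neither was. Some sites stood high in 1 list and low in the other. The site at chr4:104677175-104677597 ranked 11 in the WT list with 188.29 and 1155 in the TKO list with 75.02. In the other direction, chr9:71530042-71530647 ranked 981 in WT with 76.91 and 8 in TKO with 467.26. The plot of paired scores shows this scatter around the line of equal score.

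The 9 shared WT peaks that were not identical in the TKO DAXX list held lower WT scores than the leading pairs, from 72.16 to 116.58. The highest was chr13:111158870-111159247, with 116.58 in WT and 174.67 in TKO cells. This site was in the WT DAXX list and not in the TKO DAXX list. A peak at chrX:166442978-166443447 scored 91.73 in WT and 126.09 in TKO cells, and one at chr7:106299821-106300173 scored 91.70 and 100.61. Both were in neither DAXX list. A WT peak at chr5:33015055-33015560 (84.26) belonged to a region in all 4 antibody lists. The TKO ATRX peak there, chr5:33015214-33016169, scored 532.5 and also covered the identical WT interval chr5:33015563-33015999 (109.77). That last interval stands to the base in both the WT ATRX and the TKO DAXX list.

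Sharing was concentrated among the strongest peaks of both lists. In the WT list 13 of 24 peaks with a score of 150 or more were shared (54.2%, 32.8 to 74.4), and in the TKO list 26 of 75 (34.7%, 24.0 to 46.5). Between 100 and 150 the shares were 19 of 190 WT peaks (10%, 6.13 to 15.2) and 12 of 219 TKO peaks (5.48%, 2.86 to 9.38). Below a score of 80, which held 651 WT and 801 TKO peaks, 1.69% (0.846 to 3.00) and 0.749% (0.275 to 1.62) were shared. Such low-scoring peaks made up 45.2% of the WT and 48.5% of the TKO list. At the very top, 6 of the 10 highest WT peaks and 6 of the 10 highest TKO peaks had a partner in the other list. Of the 100 highest, 22 WT and 27 TKO peaks did.

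The identical intervals make up much of that upper range. Among the 100 highest WT peaks, 83 were identical in the TKO DAXX list and 21 of these were shared (25.3%), against 6.13% of all 750. The other 17 held 1 shared peak (5.88%, 0.149 to 28.7). Among the non-identical WT peaks the share was 5 of 120 (4.17%, 1.37 to 9.46) in the 400 highest, 8 of 434 (1.84%, 0.799 to 3.60) in the 1000 highest and 9 of 690 (1.30%) in all. The percentage was thus higher in the upper ranks than over all peaks for both kinds of WT interval, and for the non-identical ones, which had the lower percentages, the intervals overlap. By score band, non-identical WT peaks were shared in 0 of 2 cases at 150 or more, 3 of 53 between 100 and 150 (5.66%, 1.18 to 15.7) and 3 of 388 under 80 (0.773%, 0.160 to 2.24). TKO ATRX peaks that met a non-identical WT peak numbered 3 of 75 at 150 or more (4%, 0.833 to 11.2) and 2 of 801 under 80 (0.250%, 0.0303 to 0.899).

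**Figure D2:**
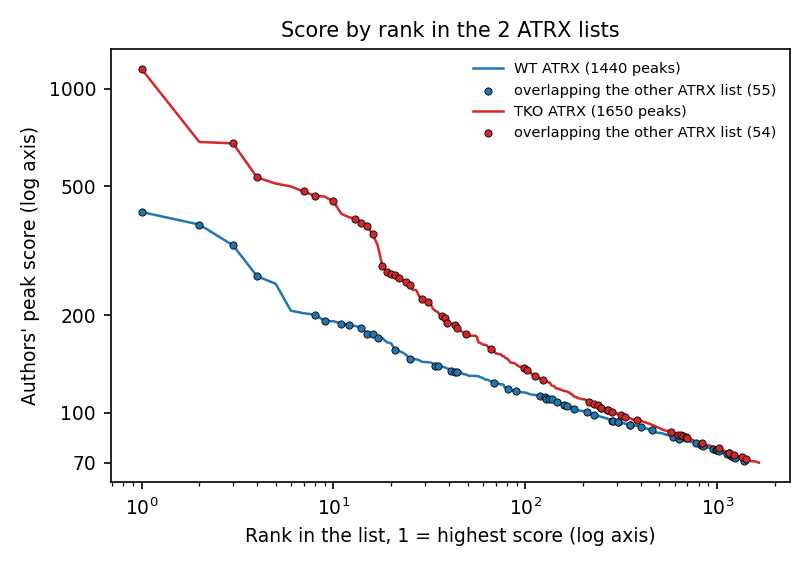
Authors' score against rank for every peak of the WT ATRX list (blue, 1440 peaks) and the TKO ATRX list (red, 1650 peaks), both axes logarithmic. Points mark the 55 WT and 54 TKO peaks that overlap the other ATRX list, and they lie mostly at the high-scoring end of each curve.

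With all WT peaks counted, wide peaks were shared more often than narrow ones. Median width was 325 bp in the WT list (321 to 329) and 348 bp in the TKO list (344 to 352). Shared peaks had medians of 470 bp in WT (418 to 594) and 626.5 bp in TKO cells (501 to 756), against 324 and 346 bp for the rest. Of peaks 1000 bp or wider, 8 of 17 in WT (47.1%, 23.0 to 72.2) and 12 of 39 in TKO cells (30.8%, 17.0 to 47.6) were shared. Of those narrower than 300 bp, 7 of 496 (1.41%) and 4 of 407 (0.983%) were. With every peak set to 400 bp around its midpoint, 52 WT and 51 TKO peaks were shared. Among peaks deposited at 1000 bp or wider, 6 of 17 WT (35.3%, 14.2 to 61.7) and 10 of 39 TKO peaks (25.6%, 13.0 to 42.1) were then shared, and among those under 300 bp 7 of 496 (1.41%) and 4 of 407 (0.983%). Among the non-identical WT peaks at their deposited widths, 0 of 3 of 1000 bp or more and 0 of 4 of 600 to 1000 bp were shared. Of 400 to 600 bp 4 of 88 were (4.55%, 1.25 to 11.2), and under 300 bp 2 of 188 (1.06%, 0.129 to 3.79). TKO peaks that met a non-identical WT peak numbered 1 of 39 at 1000 bp or more (2.56%, 0.0649 to 13.5). They were 4 of 126 at 600 to 1000 bp (3.17%, 0.872 to 7.93) and 3 of 407 under 300 bp (0.737%, 0.152 to 2.14). The higher share at 1000 bp or more thus rested largely on the identical intervals.

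Width and score were each linked to sharing when the other was held in a band. Among peaks with a score of 100 or more, 24 of 78 WT peaks of at least 400 bp were shared (30.8%) and 8 of 136 narrower ones (5.88%). In the TKO list these numbers were 31 of 176 (17.6%) and 7 of 118 (5.93%). With scores under 100, 14 of 173 wide WT peaks (8.09%) and 9 of 1053 narrow ones (0.855%) were shared, and 9 of 342 (2.63%) and 7 of 1014 (0.690%) in the TKO list. Among non-identical WT peaks the counts were small: with a score of 100 or more, 1 of 12 wide and 2 of 43 narrow peaks were shared, and under 100, 3 of 83 (3.61%) and 3 of 552 (0.543%). Width and score themselves were related in the TKO list (Spearman's rho 0.28 over 1650 peaks) and hardly so in the WT list (-0.04 over 1440 peaks).

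**Figure D3:**
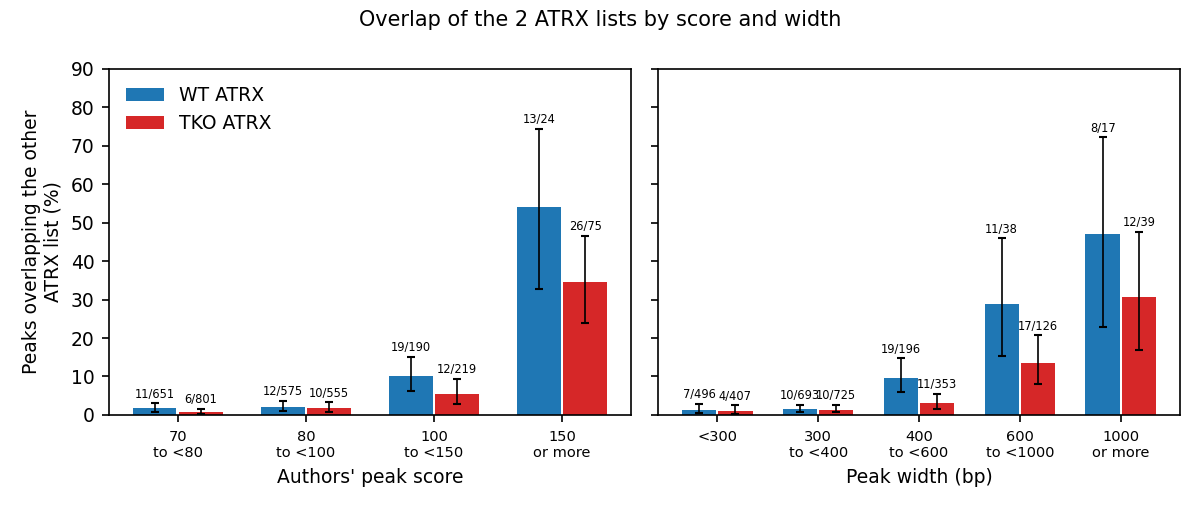
Percentage of WT ATRX (blue) and TKO ATRX (red) peaks that overlap the other ATRX list, by the authors' score (left) and by peak width in bp (right). Bars start at 0, error bars are exact 95% binomial intervals over peaks, and the numbers above them are shared peaks out of all peaks in the band. The percentage is highest in the top score and width bands of both lists.

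The TKO list had the longer upper tail of listed scores, which are not on 1 scale between the lists. Its highest score was 1152.59, against 416.54 in the WT list, although the medians were 80.5 and 81.4. Scores of 200 or more were given to 36 TKO and 8 WT peaks, and of 500 or more to 5 and 0. All 8 of those WT peaks were identical in the TKO DAXX list, and the highest score among the other WT peaks was 163.59. The TKO peaks also covered more sequence, 670118 bp against 502944 bp, a ratio of 1.33, while the ratio of peak numbers was 1.15 (1.07 to 1.23). Sequence inside both lists came to 33567 bp, which is 6.67% of the WT and 5.01% of the TKO sequence. The lowest scores were 70.01 in WT and 70 in TKO cells, so both lists ended at nearly the same value.

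Several of the strongest TKO peaks had no WT ATRX partner. The highest was chr12:4536927-4538028 with a score of 685.7, rank 2 of its list, and the nearest WT ATRX peak was 99.6 kb away. At chr13:59240260-59241328 (510.11, rank 5) the distance was 122 kb. On chromosome 1 a pair of neighbouring TKO peaks, chr1:194495777-194497547 (499.66) and chr1:194490821-194491471 (256.36), stood 1084 and 1079 kb from the nearest WT peak. A further chromosome 1 peak, chr1:38865631-38867422 (401.74), was 1176 kb from one.

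The longest peak of either list was of this kind. At chr17:39979926-39985785 the TKO ATRX list held an interval of 5860 bp with a score of 465.08, rank 9, and the nearest WT ATRX peak was 1822 kb away. The next longest TKO peaks measured 2759 and 2748 bp, both in the first stretch of chromosome 9, followed by those at the chromosome 7 and chromosome 18 common sites with 1948 and 1934 bp. The longest WT peak was the chromosome 18 site, at 2040 bp, and the fifth longest, chr9:3034573-3036398 with 1826 bp and a score of 73.46, had no TKO ATRX partner. The remaining leading TKO peaks without a partner were chr6:142698787-142699997 (411.15), chr18:81991866-81992753 (328.98), chr13:50000862-50001414 (239.35) and chr2:49103347-49104155 (239.23). Of the 10 highest TKO peaks without a WT ATRX partner, 5 overlapped a TKO DAXX peak, and none overlapped a WT DAXX peak or an IgG peak. Over all 1596 such TKO peaks 3.76% met TKO DAXX, 0.376% met WT DAXX and 0.188% met each IgG list. The absence of WT DAXX and IgG among 10 peaks is thus near the general share.

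Among the WT peaks without a TKO ATRX partner, the highest was chr2:130034062-130035439 with a score of 250.11, rank 5, and the nearest TKO ATRX peak lay 160 kb off. It was followed by chr12:77312886-77313326 (206.47) and chr7:7230690-7231061 (202.76), each 21 kb from one (21.4 and 21.1 kb). At chr9:3019582-3020648 (191.56) a TKO ATRX peak was only 2.65 kb away, and at chr5:106286971-106287587 (185.1) 6.98 kb. On chromosome 13, chr13:48226310-48226884 (169.78) and chr13:29794424-29794943 (164.99) were 972 and 1668 kb from any. Of the 10 highest such WT peaks 8 were identical in the TKO DAXX list, against 704 of all 1385 such WT peaks (50.8%). The other 2 were neighbours on chromosome 6, chr6:140129936-140130338 (163.59), which the WT DAXX list also held, and chr6:140183357-140183813 (153.25).

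DAXX peaks were listed far more often at shared than at unshared ATRX sites. In the TKO list 47 of 54 shared ATRX peaks overlapped a TKO DAXX peak (87.0%, 75.1 to 94.6), against 60 of 1596 unshared ones (3.76%, 2.88 to 4.81). Since 46 of the 55 shared WT intervals are themselves TKO DAXX intervals, this contrast is not separate from the common intervals. The WT DAXX list has no identical interval with either ATRX list and showed the same order. It overlapped 9 of 54 shared TKO ATRX peaks (16.7%, 7.92 to 29.3) and 6 of 1596 unshared ones (0.376%, 0.138 to 0.816). For WT ATRX it overlapped 9 of 55 shared peaks (16.4%, 7.77 to 28.8) and 24 of 1385 unshared ones (1.73%, 1.11 to 2.57). Among non-identical WT peaks it overlapped 3 of 9 shared (33.3%, 7.49 to 70.1) and 21 of 681 unshared ones (3.08%, 1.92 to 4.68), and among identical ones 6 of 46 (13.0%) and 3 of 704 (0.426%). With only the non-identical WT peaks counted as partners, TKO DAXX overlapped 2 of 9 shared (22.2%, 2.81 to 60.0) and 105 of 1641 other TKO ATRX peaks (6.40%, 5.26 to 7.69). This contrast is not free of the common intervals either. The 1641 include TKO ATRX peaks that meet identical intervals, and the shared chr5:33015214-33016169 also covers one. Shared peaks also scored higher, with median scores of 136 against 80.1 in the TKO and 108 against 81.2 in the WT list, and the part of score in these contrasts was not tested.

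Most TKO ATRX peaks stood alone. Of 1650 peaks, 1526 (92.5%, 91.1 to 93.7) overlapped none of the other 5 lists. In the WT ATRX list 658 of 1440 did so (45.7%, 43.1 to 48.3). The 750 identical intervals overlap TKO DAXX by definition, so all 658 were among the 690 other WT peaks. Outside the identical intervals most WT ATRX peaks thus stood alone too. IgG peaks were rare in both: each IgG list overlapped 3 TKO ATRX peaks, and 2 WT ATRX peaks met WT IgG and 4 met TKO IgG. Removing peaks that met IgG left 1436 WT and 1645 TKO peaks and all 55 and 54 shared ones.

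Distances set the overlap beside that of the other lists. Within 10 kb of a TKO ATRX peak were 96 WT ATRX peaks (6.67%, 5.43 to 8.08), and within 100 kb 346 (24.0%, 21.8 to 26.3). For the TKO IgG list, which holds 1057 peaks, the same numbers were 25 (1.74%, 1.13 to 2.55) and 90 (6.25%, 5.06 to 7.63). The median WT ATRX peak was 335 kb from a TKO ATRX peak, 1143 kb from a WT DAXX peak and 2461 kb from a TKO IgG peak. Without the identical intervals, 29 of 690 WT peaks (2.83 to 5.98%) lay within 10 kb and 157 (22.8%, 19.7 to 26.1) within 100 kb of a TKO ATRX peak, with a median distance of 331 kb. For TKO IgG these were 17 (2.46%, 1.44 to 3.92) and 55 (7.97%, 6.06 to 10.2), so at 10 kb the intervals for the TKO ATRX and TKO IgG lists overlap. Longer lists lie closer to everything, so lists of unequal length are not on 1 scale. The TKO ATRX peaks were in turn a median of 378 kb from a WT ATRX and 306 kb from a TKO DAXX peak.

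**Figure D4:**
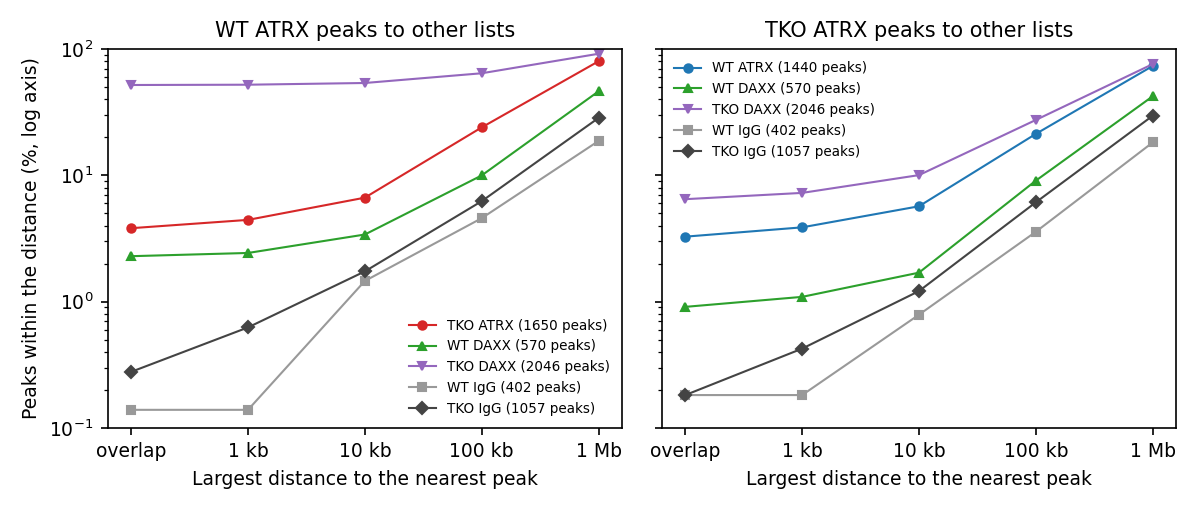
Percentage of WT ATRX peaks (left) and TKO ATRX peaks (right) that lie within a given distance of the nearest peak of each other list, on a logarithmic percentage axis, with the length of each list in the legend. WT ATRX to TKO ATRX goes from 3.82% at overlap to 24.0% within 100 kb, and both IgG lists lie below at each distance.

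Peaks of 1 list seldom sat together. With gaps of up to 10 kb joined, 74 WT peaks (5.14%) and 96 TKO peaks (5.82%) fell into runs, of which 30 and 43 were runs of 2. The exception in the WT list was the start of chromosome 9, where 11 peaks lay between 2999985 and 3038280, with scores from 73.46 to 416.54. Every one of the 11 recurred to the base in the TKO DAXX list, which had 27 peaks in the same 38296 bp. The TKO ATRX list had 5 there, the WT DAXX list 0 and the WT IgG list 1. Within the stretch 5 of the 11 WT peaks overlapped a TKO ATRX peak, so this one stretch supplied 5 of the 55 shared WT peaks.

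The TKO list had its largest run near the other end of chromosome 9, with 4 peaks between 123832728 and 123844775 scoring from 98.08 to 482.03. The WT ATRX list had 1 peak there and WT DAXX had 2. A run of 3 TKO peaks on chromosome 12, between 3235625 and 3240678 with a highest score of 142.69, had no WT ATRX and no WT DAXX peak, while TKO DAXX listed 3. The second run of the WT list, 3 peaks on chromosome 14 between 7803053 and 7813965 with a highest score of 116.55, had no TKO ATRX peak. The third was a run of 2 peaks on chromosome 1 between 183193737 and 183200730, both with a score of 110.04 and both identical in TKO DAXX, of which 1 was shared. The other TKO run of 3, at chr9:2999987-3010040, lay in the chromosome 9 stretch, and all 3 of its peaks met a WT ATRX peak.

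The shares of the 2 lists had intervals that met on every chromosome but chromosome 11. It held 134 WT ATRX peaks (9.31%, 7.85 to 10.9) and 94 TKO ATRX peaks (5.70%, 4.63 to 6.93), and no ATRX peak there was shared. Without the identical intervals the WT share was 41 of 690 peaks, 5.94%, close to that of the TKO list. TKO peaks were more numerous on 15 of the 21 chromosomes and fewer on 6, in a list 1.15 times as long as the WT list. The 15 include chromosome Y, with 1 TKO and 0 WT peaks. With the identical intervals counted, ratios on the chromosomes with peaks in both lists ran from 0.701 on chromosome 11 (0.533 to 0.920) to 1.60 on chromosome 17 (1.09 to 2.35).

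Shared peaks were unevenly placed. Chromosome 9 held 11 of the 55 shared WT peaks, 14.7% of its 75 WT peaks. Of these 11 shared peaks, 5 lay in the 38296 bp stretch at its start, which held 11 WT peaks. Chromosome 18 held 6, or 11.8% of 51. With the 8 on chromosome 2 these 3 chromosomes held 45.5% of the shared WT peaks and 16.8% of all WT peaks. They are the 3 chromosomes with the most shared WT peaks, so their combined share is high by that choice. By rate, chromosomes X (16.7% of 12 WT peaks) and 3 (7.81% of 64) stood above chromosome 2 (6.90% of 116). All 11 on chromosome 9, 7 of the 8 on chromosome 2 and 5 of the 6 on chromosome 18 were identical in the TKO DAXX list. Without the identical intervals 0 of 36 WT peaks on chromosome 9 were shared, and the 3 chromosomes held 2 of the 9 shared (22.2%, 2.81 to 60.0) and 16.5% of all 690 peaks. On chromosome 11, 0 of 134 WT peaks were shared, which allows a share of up to 2.24% when the limit is taken as 3 counts, and up to 2.72% by the exact interval. Chromosomes 14 and 15 also had none. Chromosome X had few peaks, 12 in WT and 19 in TKO cells, and 2 of them were shared in each.

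**Figure D5:**
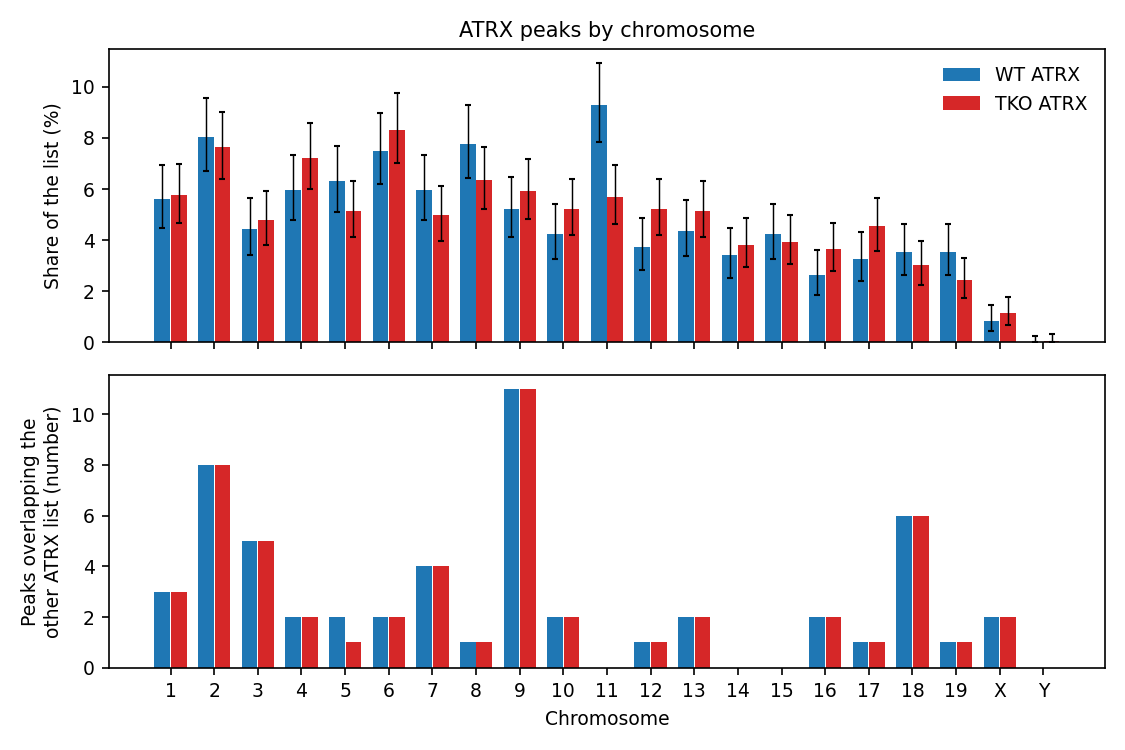
Share of the WT ATRX (blue) and TKO ATRX (red) lists on each chromosome, with exact 95% binomial intervals over peaks (top), and number of peaks on it that overlap the other ATRX list (bottom). Chromosome 11 holds 9.31% of WT and 5.70% of TKO peaks with 0 shared, and chromosome 9 holds the most shared peaks, 11 in each list.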

How the data were processed

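The comparison used 1 peak list per library, for WT ATRX and TKO ATRX, with the DAXX and IgG lists of both lines as reference. The submitters' processing notes list Bowtie2, Picard and mm9 without roles, and peaks carry MACS names. For the caller, neither version nor settings nor controls are given in these sources. In the authors' deposited ATRX and DAXX lists the score is 1 value per peak without a header. Deposited IgG scores are a multiple of the negative log10 of a p-value per the file headers. No file gives a read total.

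Groups came from sample titles. BED starts were changed to count from 1. Overlaps (1 bp or more) and exact binomial intervals were computed with Python 3.11.15, pandas 2.3.3 and scipy 1.17.1. Both ATRX counts matched bedtools 2.31.1, and the overlap counts were checked on simulated data. With 1 library per group no test was run. Width intervals are order-statistic intervals of the median.

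Described were the 15 best mean-ranked shared pairs, the 10 highest unshared, 5 longest and 3 largest runs per list, and, chosen after their values were seen, single pairs that stood apart. The members and rules were chosen with earlier results of these data known. No sequence or gene annotation of mm9 was used here, so peaks carry positions and no gene names, and the planned gene lists were not run.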

Additional observations from a re-analysis of the deposited data

How the results depend on the processing

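With 1 library per group, counting error was the only measure of spread, and sequencing depth is unknown. The use of TKO DAXX in place of WT ATRX was added with the data already seen. In all 299 values were recomputed, of which 254 stayed within their interval (within 1.5 times for list lengths), 44 moved and 1 reversed. Of 228 single values for chromosomes other than 11, 16 moved, 14 of them at a score of at least 100. Some values could not change. Removing or replacing WT intervals leaves the length, width and chromosome shares of the TKO list as they were. Keeping the upper 50% of each list keeps the ratio of peak numbers. The number that stayed is therefore not a measure of stability.

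In the upper 50% by score (720 WT and 825 TKO peaks) median widths were 311 and 383 bp, 5.42% of WT and 4.61% of TKO peaks were shared, and 7.64% of WT peaks were on chromosome 11. At a score of at least 100 (214 and 294 peaks, ratio 1.37) widths were 339 and 449.5 bp, sharing was 10.3% and 7.48%, and chromosome 11 held 5.14% and 4.08%. With the 1000 highest peaks of each list the ratio was 1 by construction and widths were 320 and 365 bp. Without the identical intervals 690 WT peaks were left, the ratio was 2.39, sharing was 1.30% and 0.545%, and chromosome 11 held 5.94% of WT peaks. Putting TKO DAXX in place of WT ATRX compares, by the labels, the DAXX and ATRX lists of TKO cells and not WT with TKO. The ratio was then 0.806, the only value counted as reversed. Sharing was 5.47% and 6.48%, and chromosome 11 held 19.6% of TKO DAXX peaks. Stricter overlap rules, a 1 kb allowance, removal of IgG peaks, merging and a fixed width kept sharing between 3.03% and 4.44%. Promoter alternatives were not run without mm9 annotation. No paired analysis was possible because each group has 1 library and no result comes from a test.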

Other observations

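Many peaks of an ATRX list carried the same score as another peak of that list. This was so for 787 of 1440 WT peaks (54.7%) and 836 of 1650 TKO peaks (50.7%). The most frequent WT score, 72.06, was given to 70 peaks, and the most frequent TKO score, 70.72, to 43. Among peaks with a score of 100 or more, 44 of 214 in WT and 54 of 294 in TKO cells had a tied score. Ranks within the lower part of either list are therefore coarse.

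Some peaks agreed in score and in width to the base. There were 135 such sets in WT, with 355 peaks, and 122 in TKO cells, with 308 peaks. Few sets lay on 1 chromosome, 11 in WT and 12 in TKO cells. The highest WT set held 3 peaks of 167 bp with a score of 111.61, at chr14:5659252-5659418, chr14:5945304-5945470 and chr14:6748855-6749021. A pair of 265 bp and 110.04 followed on chromosome 1, at chr1:183193737-183194001 and chr1:183200466-183200730, and only the second of these met a TKO ATRX peak. The highest TKO set held 3 peaks of 175 bp with a score of 172.75, at chr2:176942400-176942574, chrX:89063403-89063577 and chrX:118558569-118558743. A TKO pair of 224 bp and 114.89 lay at chr13:65918336-65918559 and chr13:66209824-66210047. None of these 3 WT peaks on chromosome 14 or of these 5 TKO peaks was shared between the ATRX lists or overlapped a TKO DAXX peak. Over both lists, 2 shared WT peaks and 1 shared TKO peak belonged to any such set. The sequences at these sites were not examined here.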
